A study of Drosophila melanogaster with 14 samples.

Results

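The genes described here encode zona pellucida (ZP) domain proteins of the apical extracellular matrix of Drosophila melanogaster: miniature (m), dusky (dy), dusky-like (dyl), papillote (pio), trynity (tyn), morpheyus (mey), nyobe (nyo), neyo (neo), quasimodo (qsm) and cypher (cyr). They were listed by name as ZP domain genes, with no cut on a measured value but with earlier results of these data known, and 9 of the 10 were measured, among 14156 genes in the wild-type tables and 15682 in the Ubx degradation tables; tyn was not analysed here. The ZP domain is a module through which secreted and membrane-anchored proteins join into filaments. In insect epithelia such proteins lie between the apical cell surface and the forming cuticle, where they hold the matrix to the cell and shape denticles, hairs and tubes. In the embryonic epidermis several of them, among them m, dyl, mey, nyo, neo and cyr, are known targets of Shavenbaby, the transcription factor encoded at the ovo locus that directs denticle formation, and each protein takes its own place along the denticle.

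The study asked how the Hox protein Ubx acts in embryonic mesoderm, and RNA was sequenced from INTACT nuclei, that is, nuclei that carry an affinity tag in a chosen tissue and are purified through it. In the wild-type set, mesodermal nuclei came from twi-INTACT embryos, in which twi directs the tag, and neuronal nuclei from elav>INTACT embryos, in which the tag is driven through elav. For each tissue there were 2 libraries of embryos at stages 14-17 and 2 of embryos at stages 10-13. In the degradation set, all 6 libraries were mesodermal nuclei of stages 14-17 tagged by twi-INTACT and carrying GFP-Ubx. The 3 Ubx degraded libraries (twi-INTACT, Mef2>Nslmb,GFP-Ubx) had Nslmb driven by Mef2, a muscle regulator, so that a fusion to part of an F-box protein sends GFP-tagged protein to degradation in the cells where Mef2 drives it. The 3 control libraries (twi-INTACT; UAS-Nslmb,GFP-Ubx) carried the same transgenes without the driver. No label names separate embryo collections for the replicates, so the p-values below measure only how far these libraries differ from each other, and this spread may be technical.

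Assigned counts ran from 12970816 to 17905141 in wild-type mesoderm libraries and from 27924215 to 36150646 in neuronal libraries, and from 24391565 to 28150883 in Ubx degraded libraries and 24314883 to 31033963 in their controls. Counts of the 9 genes lay between 122 and 15087 in wild-type libraries and between 111 and 6386 in degradation libraries, so none was near the limit of detection. The tissue labels were checked against marker genes. Of 10 mesoderm and muscle markers, 6 were higher and 2 lower in mesoderm than in neuronal nuclei at stages 10-13, and 8 were higher and 0 lower at stages 14-17. The 2 lower were the muscle genes Mhc (-1.70 on the log2 scale, adjusted p = 0.00186) and Act57B (-2.08, adjusted p = 0.00475, both edgeR). The summed level of this list at stages 10-13 did not separate the tissues. It was 7726 to 8241 CPM (a count scaled to the normalised library size) in mesoderm and 7517 to 8270 CPM in neuronal nuclei. Of 9 neuronal markers tested, 7 were lower and 1 higher in mesoderm at stages 10-13. At stages 14-17 the neuronal markers did not separate the tissues: 2 of 9 were higher in mesoderm, near the 19% of all genes called higher, and 0 were lower by edgeR's quasi-likelihood test, with 4 higher and 0 lower at an unadjusted p under 0.05 and 3 and 0 by DESeq2. With 1 library left out, 1 to 4 were higher and 0 lower. The markers that passed were Nrg and Rdl, and the call of Nrg held in all 8 such fits. That of Rdl was lost without either late mesoderm or early neuronal library or without late neuronal replicate 2 (adjusted p 0.0677 to 0.168, edgeR). The summed level of the neuronal list at stages 14-17 was 2856 to 2914 CPM in mesoderm and 1489 to 1574 CPM in neuronal nuclei. Most of that gap was Nrg, an adhesion protein gene, with a mean of 1888 CPM in late mesoderm and 797 CPM in late neuronal nuclei, and Nrg was already higher in mesoderm at stages 10-13, by 0.77 on the log2 scale (adjusted p = 0.0145, edgeR, and up to 0.0641 across alternatives). The synaptic gene nSyb averaged 78.8 CPM in late mesoderm and 97.9 CPM in late neuronal nuclei, and did not pass (adjusted p = 0.498, edgeR). The neuronal marker elav was at no more than 0.344 CPM in any wild-type library. Other genes overlap 98.6% of the elav span and 34.2% of its exons, and whether the counting lowered its level was not tested. Comparisons that use the neuronal libraries of stages 14-17 are described as comparisons with the libraries labelled neuronal. In bulk nuclei, fewer cells of a type and less RNA per cell cannot be told apart.

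The genes lie on 4 chromosome arms (BDGP6, Ensembl coordinates), and none of the 9 has exons overlapped by another gene. On the X chromosome, m (FBgn0002577, 11754273 to 11769508, plus strand) and dy (FBgn0004511, 11769769 to 11778784, minus strand) are neighbours whose ends lie 260 bases apart, and cyr (FBgn0030001, 8121280 to 8135713, minus strand) lies elsewhere on the same chromosome. On 3R, mey (FBgn0039851, 31499235 to 31506992) and nyo (FBgn0039852, 31543032 to 31566165) follow each other on the plus strand with 36039 bases between them, and neo (FBgn0039704, 29819131 to 29825800) lies on the same arm and strand. On 3L lies dyl (FBgn0066365, 4294004 to 4307718, minus strand), and on 2R lie pio (FBgn0020521, 24581245 to 24597862, plus strand) and qsm (FBgn0028622, 20563034 to 20583591, minus strand). Other genes overlap 32.3% of the span of cyr and 7.33% of that of m, in introns. The wild-type tables gave 0 counts in all libraries to 284 of 297 genes that lie inside another gene without sharing its exons and had at least 10 CPM in the degradation controls. Among 3302 genes whose span no other gene overlaps, 1 was at 0. The sources used here do not say whether introns were counted in the wild-type tables, so levels of different genes are compared per length only in the degradation set.

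In the wild-type set the members differed in where they were highest. The denticle genes m, dyl, nyo and mey, with dy, had their highest mean in mesoderm at stages 14-17 and their lowest in mesoderm at stages 10-13. By contrast pio and qsm were highest in neuronal nuclei at stages 10-13, cyr was high in that group and in late mesoderm, and neo varied least between groups. The sum over the 9 genes was 1574 and 1625 CPM in mesoderm at stages 14-17 and 441 and 481 CPM in mesoderm at stages 10-13. It was 1027 and 1409 CPM in neuronal nuclei at stages 14-17 and 1259 and 1289 CPM in neuronal nuclei at stages 10-13. Early mesoderm thus stood below every other wild-type library. With 2 libraries per group, overlap between groups or its absence, as given below, describes these libraries only. The share of all genes whose wild-type groups did not overlap is not given here.

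**Figure D1:**
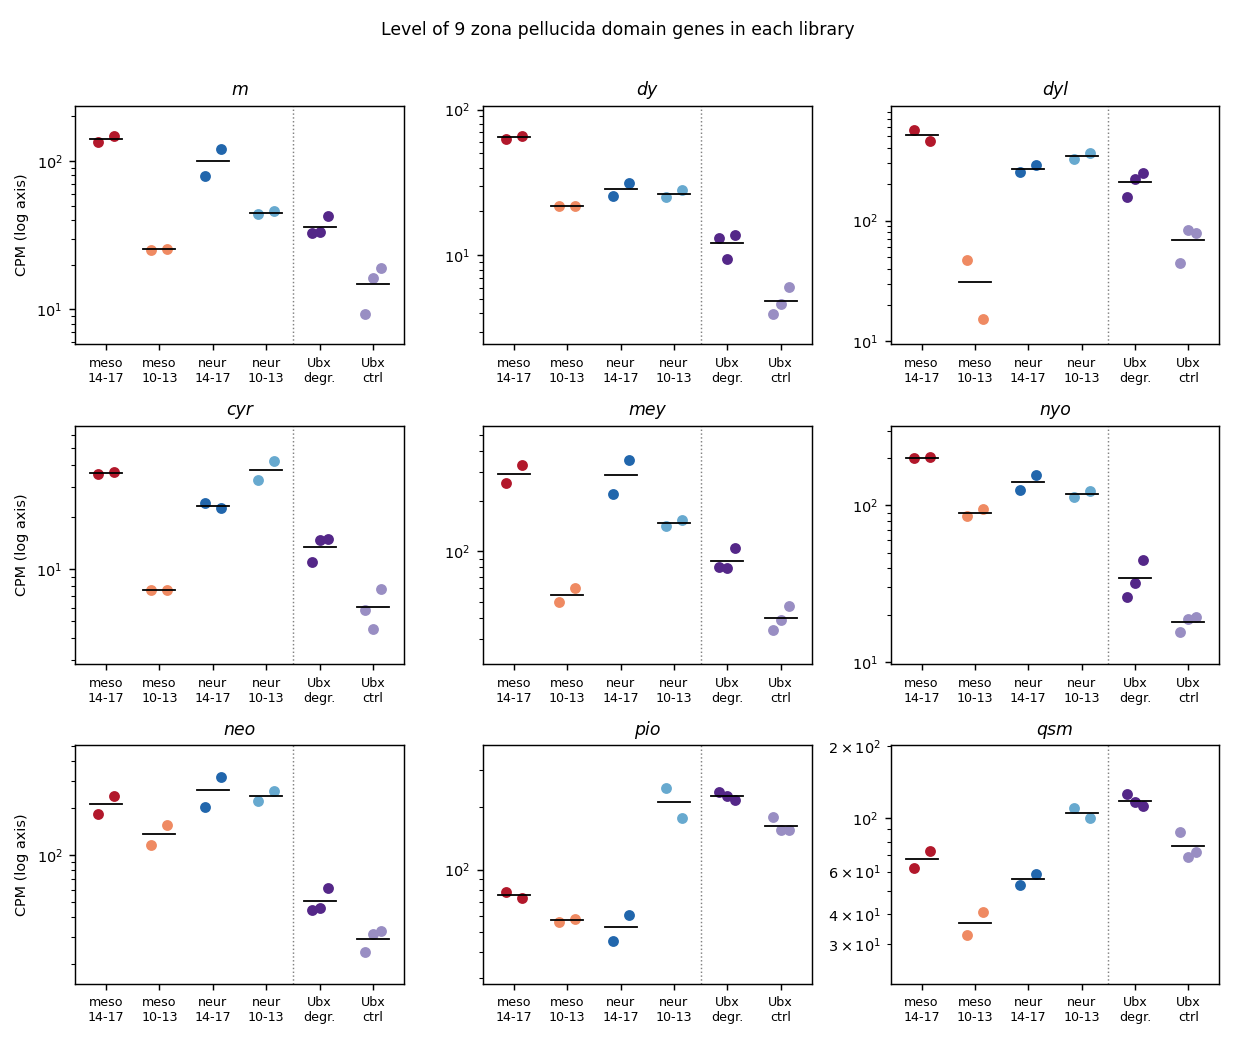
Level in CPM (log axis) of the 9 measured ZP domain genes in each library, with a bar at each group mean; wild-type groups are mesoderm (meso) and neuronal (neur) nuclei at stages 14-17 and 10-13, and libraries right of the dotted line are the degradation set. For m, the mesoderm libraries hold 135 and 148 CPM at stages 14-17 and 25.2 and 25.6 CPM at stages 10-13, and the Ubx degraded libraries lie above their controls in all 9 panels. Levels on either side of the dotted line were counted and normalised apart.

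Among the denticle genes, m, which shapes the surface of epidermal cells and is named for its small-winged mutant, was at 135 and 148 CPM in mesoderm at stages 14-17 and at 25.2 and 25.6 CPM in mesoderm at stages 10-13. In neuronal nuclei m was at 79.6 and 120 CPM at stages 14-17 and at 43.8 and 46.1 CPM at stages 10-13. The 4 groups followed each other without overlap, from late mesoderm down to early mesoderm. Its paralogue dyl, needed for chitin deposition on hairs and bristles, spanned the widest range. It was at 560 and 459 CPM in mesoderm at stages 14-17 and at 46.8 and 15.2 CPM in mesoderm at stages 10-13, where the libraries differed about as much as their mean. In neuronal nuclei dyl was at 251 and 290 CPM at stages 14-17 and at 325 and 363 CPM at stages 10-13, so that early mesoderm alone stood apart on the low side.

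The neighbours mey and nyo, both of which act in the forming denticle, had their group means in the same order but differed in overlap between groups. In mesoderm mey was at 256 and 327 CPM at stages 14-17 and at 49.4 and 60.5 CPM at stages 10-13. In neuronal nuclei it was at 219 and 354 CPM at stages 14-17 and at 141 and 153 CPM at stages 10-13, and the late libraries of the tissues overlapped. For nyo the levels were 201 and 203 CPM in mesoderm at stages 14-17 and 85.2 and 94.7 CPM in mesoderm at stages 10-13. The neuronal libraries had 126 and 156 CPM of nyo at stages 14-17 and 113 and 124 CPM at stages 10-13. All 4 groups of nyo were apart, with the neuronal groups between the mesoderm groups.

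The remaining denticle genes were neo and cyr. For neo, mesoderm had 183 and 239 CPM at stages 14-17 and 117 and 157 CPM at stages 10-13. The neuronal libraries had 204 and 315 CPM of neo at stages 14-17 and 221 and 256 CPM at stages 10-13. The highest 3 groups of neo overlapped, and early mesoderm lay below them. The cyr gene was at 35.5 and 36.3 CPM in mesoderm at stages 14-17 and at 7.60 and 7.63 CPM in mesoderm at stages 10-13. It was at 24.0 and 22.5 CPM in neuronal nuclei at stages 14-17 and at 32.8 and 42.4 CPM in neuronal nuclei at stages 10-13. Late mesoderm and early neuronal nuclei overlapped for cyr at the top, and early mesoderm was lowest.

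The other 3 genes are known mainly from other settings: dy from wing cells, pio from the link of the epidermis and trachea to Dumpy, a giant ZP protein, and qsm from light input to the circadian clock. In mesoderm dy was at 63.3 and 66.4 CPM at stages 14-17 and at 21.8 and 21.7 CPM at stages 10-13. In neuronal nuclei it was at 25.5 and 31.3 CPM at stages 14-17 and at 25.1 and 27.9 CPM at stages 10-13, and these groups overlapped. For pio the levels were 78.5 and 73.1 CPM in mesoderm at stages 14-17 and 56.0 and 58.2 CPM in mesoderm at stages 10-13. The neuronal libraries had 45.3 and 60.5 CPM of pio at stages 14-17 and 247 and 177 CPM at stages 10-13. The early neuronal libraries of pio stood far above all others, and late neuronal and early mesoderm libraries overlapped. In mesoderm qsm was at 61.9 and 72.9 CPM at stages 14-17 and at 32.8 and 40.6 CPM at stages 10-13. In neuronal nuclei qsm was at 52.9 and 58.8 CPM at stages 14-17 and at 111 and 99.8 CPM at stages 10-13, and no groups overlapped.

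The first comparison set mesoderm against neuronal nuclei at stages 10-13. All 9 genes had a lower mean in mesoderm, and 7 were called by edgeR (quasi-likelihood test, p-values adjusted by Benjamini-Hochberg over 10549 genes, threshold 0.05), against 29.5% of all genes called lower and 23.2% called higher. The denticle genes dyl and cyr were 11.1-fold and 4.93-fold lower in mesoderm, with log2 differences of -3.47 ± 0.49 (SE) and -2.30 ± 0.21 (adjusted p = 0.00105 and 0.000251, edgeR). Next came pio, 3.72-fold lower (-1.89 ± 0.23), qsm, 2.86-fold lower (-1.52 ± 0.19), and mey, 2.67-fold lower (-1.42 ± 0.27). Smaller differences passed for m, at -0.83 ± 0.22 (adjusted p = 0.0162, edgeR), and neo, at -0.80 ± 0.27 (adjusted p = 0.0391, edgeR). The values for dy and nyo were -0.29 ± 0.18 and -0.40 ± 0.18 and did not pass (adjusted p = 0.227 and 0.0930, edgeR). The median over the 9 genes was -1.42 and over all genes -0.08. The call of m was lost when any of the 4 libraries compared was left out (adjusted p 0.0554 to 0.0893, edgeR). That of neo was lost without either library of early mesoderm, late mesoderm or early neuronal nuclei (0.0639 to 0.238), and with size factors by relative log expression (0.0514). With library totals alone the call counts over all genes were 1664 higher and 3707 lower in place of 2451 and 3115, the median of all genes was -0.33, and dy and nyo passed as well (adjusted p = 0.0323 and 0.0120, edgeR).

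From stages 10-13 to 14-17, the mesoderm libraries gained most of these transcripts. At stages 14-17, 7 of the 9 genes were higher in mesoderm than at stages 10-13, against 24.9% of all genes called higher and 22.7% lower. By fold, dyl was 16.5-fold higher (4.04 ± 0.50), m 5.58-fold (2.48 ± 0.23), mey 5.30-fold (2.41 ± 0.28) and cyr 4.71-fold (2.24 ± 0.21). Of the others, dy was 2.98-fold higher (1.58 ± 0.19), nyo 2.25-fold (1.17 ± 0.18) and qsm 1.83-fold (0.87 ± 0.19), with adjusted p from 0.000351 to 0.00818 over the 7 (edgeR). The differences of pio, 0.41 ± 0.23, and neo, 0.63 ± 0.27, did not pass (adjusted p = 0.172 and 0.0934, edgeR). The median was 1.58 over the 9 genes and 0.00 over all genes, or -0.16 over all genes with library totals alone. Neuronal and tendon markers also moved in that direction: 8 of 9 neuronal markers were higher and 0 lower (median 2.98), with 9 and 0 at an unadjusted p under 0.05 (edgeR) and by DESeq2. Of 4 tendon markers 3 were higher and 0 lower (median 2.41), with 4 and 0 unadjusted and by DESeq2, and the part of both lists in the members' change was not tested. The call of qsm was lost without early mesoderm replicate 1 (adjusted p = 0.0723) or late mesoderm replicate 2 (0.0590), over a range of 0.000724 to 0.0723 across alternatives (edgeR, with DESeq2 at the low end). That of neo was gained without late neuronal replicate 1 (0.0369) or 2 (0.0408), and those of neo and pio with only the mesoderm libraries in the fit (0.0328 and 0.0294, edgeR).

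In the libraries labelled neuronal, the same stages gave changes in both directions: 2 of 9 genes were higher at stages 14-17 and 3 lower, against 8.47% of all genes called higher and 12% lower. The genes called higher were m, 2.22-fold (1.15 ± 0.22, adjusted p = 0.0140), and mey, 1.95-fold (0.96 ± 0.26, adjusted p = 0.0411, both edgeR). The pio gene was 4.01-fold lower (-2.00 ± 0.23, adjusted p = 0.00266), qsm 1.88-fold (-0.91 ± 0.19, adjusted p = 0.0184) and cyr 1.62-fold (-0.69 ± 0.20, adjusted p = 0.0456, all edgeR). The other 4 ranged from -0.35 for dyl to 0.26 for nyo. The median was 0.10 over the 9 genes and -0.03 over all genes, or -0.15 over all genes with library totals alone. With only the neuronal libraries in the fit, pio alone kept its call. The lower level of pio held without each of the 8 libraries (adjusted p up to 0.0253 over all alternatives, edgeR). The calls of m and qsm were lost without early neuronal replicate 1 (0.104 and 0.124) or 2 (0.0568 and 0.0535). Those of cyr and mey were lost in 7 of the 8 such fits, all but the 1 without late neuronal replicate 1 (adjusted p 0.0908 to 0.182 and 0.0530 to 0.202, edgeR).

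The stage change itself differed between the tissues. The change in mesoderm minus that in neuronal nuclei was above 0 for all 9 genes, and 8 passed the test of this difference, against 20.6% of all genes called higher and 14.7% lower. It was largest among the 9 for dyl, at 4.39 ± 0.65, followed by cyr (2.93 ± 0.29), pio (2.41 ± 0.32) and qsm (1.79 ± 0.27). It was 1.48 ± 0.26 for dy, 1.44 ± 0.37 for mey, 1.33 ± 0.31 for m and 0.91 ± 0.25 for nyo (adjusted p from 0.000817 to 0.0263 over the 8, edgeR), and 0.50 ± 0.38 for neo (adjusted p = 0.333, edgeR). For m and nyo, the calls in this difference were lost in 4 and 7 of the 8 fits that left out 1 library (adjusted p 0.0515 to 0.0575 and 0.0518 to 0.120). For mey it was lost in 4 (0.0616 to 0.0829, edgeR), and for nyo also with all 14 libraries in 1 fit (0.0615). The libraries in question were both early mesoderm libraries, late mesoderm replicate 2 and early neuronal replicate 2 for m, early mesoderm replicate 1, late mesoderm replicate 2 and both early neuronal libraries for mey, and all but late neuronal replicate 2 for nyo. The median over the 9 genes was 1.48 and over all genes -0.11. The same difference was higher for 7 of 9 neuronal markers (median 3.10) and for 11 of 12 apical chitin matrix genes (median 3.38).

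At stages 14-17, mesoderm and the libraries labelled neuronal were close. Of the 9 genes, 3 were higher in mesoderm and 0 lower, against 19% of all genes called higher and 22.1% lower, so the share of members higher lay near the background. The dy gene was 2.28-fold higher (1.19 ± 0.19, adjusted p = 0.00382, edgeR), and this call held without each of the 8 libraries. The calls of cyr (0.63 ± 0.20, adjusted p = 0.0385) and nyo (0.51 ± 0.18, adjusted p = 0.0498, both edgeR) were lost in 5 and 7 of the 8 fits that left out 1 library. They were lost also without the filter on low counts, with library totals alone, with only the groups compared and with all libraries in 1 fit (adjusted p 0.0534 to 0.259 for cyr and 0.0721 to 0.285 for nyo, edgeR). A call was gained by dyl with only the groups compared (adjusted p = 0.0390) and by pio with all libraries in 1 fit (0.0279, edgeR). For cyr those libraries were all 4 of mesoderm and late neuronal replicate 2 (0.0893 to 0.178), and for nyo all but late neuronal replicate 2 (0.0697 to 0.188). The other 6 genes ranged from -0.30 for neo to 0.91 for dyl, and no member passed as lower by edgeR at an unadjusted p under 0.05 (0 of 9) or by DESeq2 (0 of 9). Without late neuronal replicate 2, m (adjusted p = 0.0138) and pio (0.0320) passed as higher, and without early mesoderm replicate 1 or 2 dyl did (0.0193 each, edgeR). With library totals alone, calls over all genes were 1375 higher and 3554 lower in place of 2004 and 2336, the median of all genes was -0.42 in place of -0.12, and the values of mey and qsm were -0.25 and -0.03 in place of 0.02 and 0.27.

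**Figure D2:**
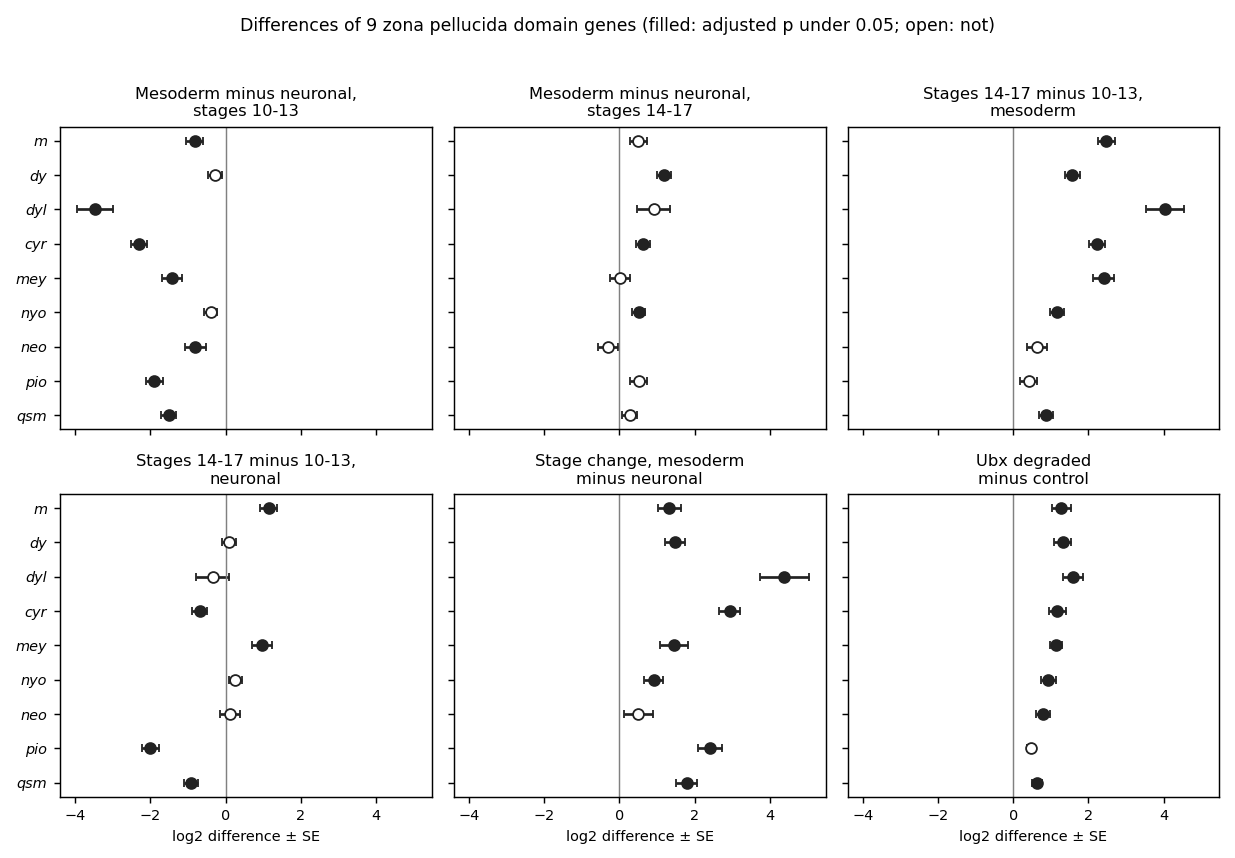
Log2 difference (edgeR, points, with bars for 1 SE) of each measured ZP domain gene in the 6 comparisons, filled where the adjusted p was under 0.05 and open where it was not; values right of 0 are higher in the group or tissue named first in each panel's title. The early tissue comparison lies left of 0, with dyl at -3.47, and the mesoderm stage change, the difference of stage changes and the Ubx degradation comparison lie right of 0 for all 9 genes.

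The degradation set asked what changed in mesodermal nuclei of stages 14-17 when GFP-Ubx was targeted for degradation in Mef2-driven cells. The Mef2 driver was in the Ubx degraded libraries only, so its effect cannot be told apart from that of degradation. Ubx protein was not measured here. All 9 genes were higher in each Ubx degraded library than in each control, a pattern held by 15.9% of all genes in that direction. The test passed for 8 of the 9 as higher and 0 as lower, against 3.57% of 11641 genes called higher, 1.21% lower and 4.78% in all. The median was 1.14 over the 9 genes and -0.01 over all genes.

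Among the denticle genes, dyl was at 159, 220 and 249 CPM in Ubx degraded libraries, against 44.5, 84.2 and 79.2 CPM in controls. The difference was 3.02-fold (1.59 ± 0.26, adjusted p = 0.0195, edgeR). For m the levels were 32.6, 33.2 and 42.8 CPM in Ubx degraded libraries, against 9.31, 16.2 and 19.1 CPM in controls, 2.43-fold (1.28 ± 0.26, adjusted p = 0.0324, edgeR). Control replicate 1 was the lowest library for both genes. Its neighbour dy was at 13.3, 9.51 and 13.8 CPM in Ubx degraded libraries, against 3.94, 4.67 and 6.04 CPM in controls, 2.50-fold (1.32 ± 0.22, adjusted p = 0.0200, edgeR). The mey gene was at 80.1, 78.9 and 105 CPM in Ubx degraded libraries, against 33.8, 38.9 and 46.8 CPM in controls, 2.21-fold (1.14 ± 0.17, adjusted p = 0.0155, edgeR). In these 4 genes each Ubx degraded library lay above each control. The cyr gene, with 11.0, 14.7 and 14.9 CPM in Ubx degraded libraries against 5.79, 4.54 and 7.74 CPM in controls, was 2.25-fold higher (1.17 ± 0.23, adjusted p = 0.0308, edgeR).

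Smaller differences were seen in nyo, neo, qsm and pio. For nyo, Ubx degraded libraries held 26.2, 31.9 and 45.1 CPM and controls 15.6, 18.8 and 19.4 CPM, 1.92-fold more (0.94 ± 0.21, adjusted p = 0.0441, edgeR). For neo, Ubx degraded libraries held 44.4, 46.2 and 61.2 CPM and controls 24.1, 31.1 and 32.6 CPM, 1.73-fold more (0.79 ± 0.18, adjusted p = 0.0446, edgeR). In both genes Ubx degraded replicate 3 was the highest library. For qsm the levels were 126, 117 and 113 CPM in Ubx degraded libraries, against 87.9, 69.1 and 72.6 CPM in controls, 1.55-fold more (0.63 ± 0.13, adjusted p = 0.0360, edgeR). For pio they were 236, 227 and 216 CPM in Ubx degraded libraries, against 179, 156 and 154 CPM in controls, and the difference of 0.47 ± 0.11 did not pass (adjusted p = 0.0535, edgeR). It passed by DESeq2 (adjusted p = 0.0208) and with library totals alone (0.0491, edgeR), over a range of 0.0208 to 0.235 across alternatives.

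How many members were called depended on single libraries, while the direction did not. All 9 differences stayed above 0 in each of 12 alternatives. Each Ubx degraded library lay above each control for all 9 genes, so leaving out 1 library could hardly change the direction. Of the 9 members, 5 were called higher without Ubx degraded replicate 1, only 1, dy, without replicate 2, and 2, dyl and mey, without replicate 3. Without control replicate 1 the number called was 4, without control replicate 2 it was 0, and without control replicate 3 it was 8. In each of these 6 fits all 9 members had an unadjusted p under 0.05 (edgeR). The share of all genes under that unadjusted threshold is not given, so this count has no background here. Calls over all genes by adjusted p moved too, from 31 higher without control replicate 2 to 753 higher without control replicate 3. With all 14 libraries in 1 fit, 5 members were called higher, and with DESeq2 9 were.

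**Figure D3:**
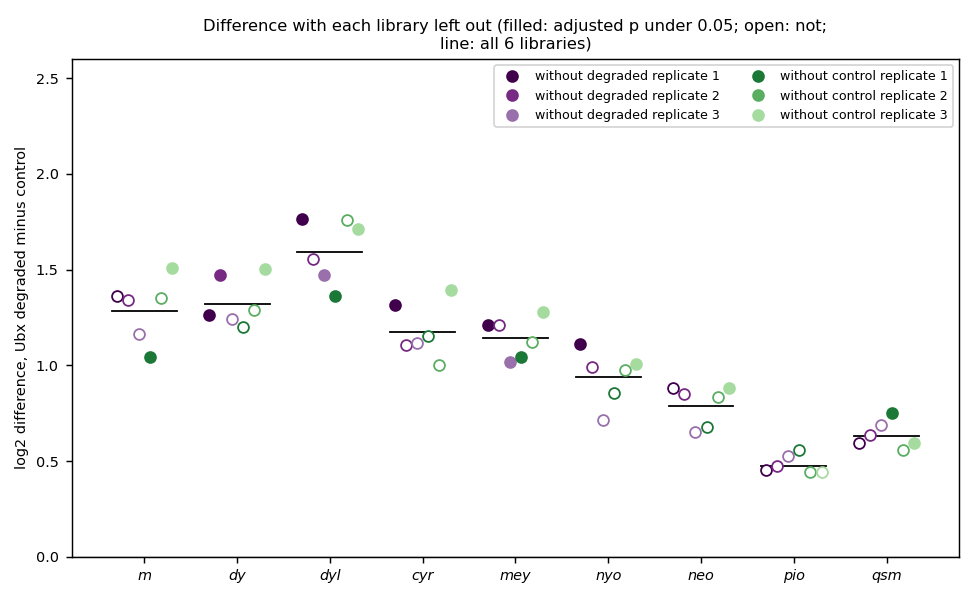
Log2 difference between Ubx degraded and control libraries (edgeR) for each measured ZP domain gene with each library left out in turn, filled where the adjusted p was under 0.05 and open where it was not; the line marks the value with all 6 libraries. All values lie above 0, from 0.44 for pio to 1.77 for dyl, and control replicate 2 left out gives 9 open points.

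Within the degradation set, where lengths could be used, the order of levels was led in Ubx degraded libraries by dyl at 66.6 ± 14.7 CPM per kilobase of exon, pio at 62.8 ± 2.71 and qsm at 57.5 ± 3.20 (SD, n = 3). In controls the same 3 genes led, as pio at 45.3 ± 3.82, qsm at 37.2 ± 4.86 and dyl at 22.1 ± 6.90 CPM per kilobase (SD, n = 3). The top 3 in Ubx degraded libraries lay within the spread of dyl. In the middle, mey was at 26.0 ± 4.27 and neo at 16.8 ± 3.08 CPM per kilobase in Ubx degraded libraries, against 11.8 ± 1.92 and 9.74 ± 1.51 in controls. The lowest was dy, at 2.99 ± 0.57 in Ubx degraded libraries and 1.20 ± 0.26 in controls, and m, nyo and cyr lay between it and neo in each group.

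Marker genes of the cells that normally wear an apical matrix moved with the members. Of 12 epidermis and trachea markers, 9 were higher in Ubx degraded libraries and 0 lower, with a summed level of 3460 to 3584 CPM, against 1750 to 1996 CPM in controls. Of 12 apical chitin matrix genes, 6 of which are also on the epidermis list, 8 were higher and 0 lower, with sums of 4205 to 4288 CPM in Ubx degraded libraries and 2019 to 2514 CPM in controls. The chitin-binding protein gene Gasp was higher by 1.57 (adjusted p = 0.00173), the chitin deacetylase gene Cda4 by 1.55 (0.00469) and the transcription factor gene vvl by 1.08 (0.00759, edgeR). The call of vvl was lost without control replicate 2 (adjusted p = 0.0507, edgeR), while those of Gasp and Cda4 held in all 6 such fits. The counts of these lists were lowest at 2 and 3 without control replicate 2, and 4 and 4 without Ubx degraded replicate 2. None of the 10 mesoderm and muscle markers passed in either direction (2 higher and 1 lower at an unadjusted p under 0.05 by edgeR, 0 and 0 by DESeq2), with sums of 33900 to 39090 CPM in Ubx degraded libraries and 35480 to 47040 CPM in controls. Of 9 neuronal markers, 0 passed (2 higher and 0 lower unadjusted by edgeR, 0 and 0 by DESeq2). The part of the epidermis and trachea markers in the change of the ZP domain genes was not tested.

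In the wild-type set the apical chitin matrix list moved in the members' direction in the early tissue comparison, where the epidermis and trachea list was split. Both lists did so in the mesoderm stage change, but not in the neuronal stage change. Of the 12 apical chitin matrix genes, 11 were lower in mesoderm than in neuronal nuclei at stages 10-13, and 10 were higher in mesoderm at stages 14-17 than at stages 10-13. In the libraries labelled neuronal, 8 of them were lower at stages 14-17 than at stages 10-13 and 0 higher (median -1.20; 9 and 0 at an unadjusted p under 0.05 by edgeR and by DESeq2), where the members had a median of 0.10. Without early neuronal replicate 1 the number lower was 2, without early neuronal replicate 2 it was 5, and with only the neuronal libraries it was 3. The sum of that list was 3437 to 4468 CPM in mesoderm at stages 14-17 and 815 to 843 CPM in mesoderm at stages 10-13, and 2397 to 3824 CPM in neuronal nuclei at stages 14-17 and 5870 to 7086 CPM in neuronal nuclei at stages 10-13. Of the 12 epidermis and trachea markers, 3 were higher and 7 lower in mesoderm than in neuronal nuclei at stages 10-13 (5 and 7 unadjusted by edgeR and by DESeq2). In mesoderm, 7 of the 12 were higher and 1 lower at stages 14-17 than at stages 10-13. In the libraries labelled neuronal, 5 were lower at stages 14-17 than at stages 10-13 and 0 higher (median -0.50; 6 and 1 unadjusted by edgeR and by DESeq2). The number lower was 0 to 3 without any 1 library but late neuronal replicate 2, and 0 with only the neuronal libraries. Their sum was 5305 to 6111 CPM in mesoderm at stages 14-17 and 2606 to 2959 CPM in mesoderm at stages 10-13, and 4070 to 6149 CPM in neuronal nuclei at stages 14-17 and 6553 to 7223 CPM in neuronal nuclei at stages 10-13. The chitin deacetylase gene serp was lower by 3.37 on the log2 scale in early mesoderm than in early neuronal nuclei (adjusted p = 0.000196, edgeR). On the epidermis and trachea list, ovo and shg were higher in that comparison, by 1.70 and 1.68 (adjusted p = 0.00170 and 0.000678, edgeR). The knk gene, whose product organises chitin, was higher in mesoderm by 2.41 at stages 14-17 than at stages 10-13 (adjusted p = 0.000293, edgeR). Whether cells of the epidermis or trachea account for ZP domain transcripts in these nuclei was not tested.

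**Figure D4:**
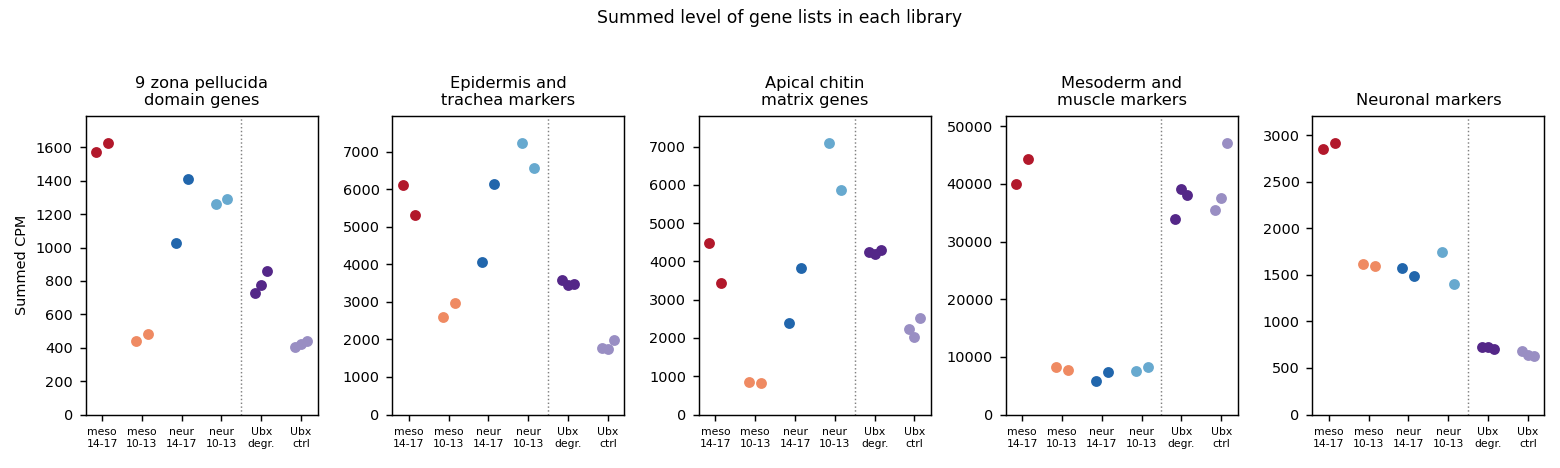
Summed level in CPM (linear axes from 0) of the 9 measured ZP domain genes and of 4 marker lists in each library, with mesoderm (meso) and neuronal (neur) nuclei at stages 14-17 and 10-13 and the degradation set right of the dotted line. The members' sums of 727 to 860 CPM in Ubx degraded libraries and 404 to 438 CPM in controls move with those of the epidermis and trachea markers and apical chitin matrix genes, and early mesoderm is low for all 3.

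Other genes of the same matrix were set beside the members. In the degradation set the giant filament gene dpy was at 1272 ± 104 CPM in Ubx degraded libraries and 874 ± 158 CPM in controls (SD, n = 3), a difference of 0.54 that did not pass (adjusted p = 0.0983, edgeR). The ZP domain gene zye, another Shavenbaby target, was at 63.8 ± 7.01 CPM in Ubx degraded libraries and 29.2 ± 5.71 CPM in controls and was higher by 1.13 (adjusted p = 0.0175, edgeR). That call was lost without control replicate 2 (0.0599) or Ubx degraded replicate 2 (0.0784), and the highest adjusted p across alternatives was 0.103. The gene nompA, whose protein ties sensory cilia to the cuticle, was at 34.3 ± 6.56 CPM in Ubx degraded libraries and 51.8 ± 32.4 CPM in controls (-0.59, adjusted p = 0.410, edgeR). At the ovo locus, which encodes Shavenbaby, Ubx degraded libraries held 54.4 ± 8.56 CPM and controls 30.2 ± 1.68 CPM (0.85, adjusted p = 0.0223, edgeR). That call was lost without control replicate 1 (0.0555) or 2 (0.121) or Ubx degraded replicate 2 (0.0977) or 3 (0.0580, edgeR), so it is uncertain. Other genes overlap 68.8% of the ovo span but 0.34% of its exons. Of 11 denticle and trichome genes measured, 2 were higher and 0 lower by edgeR, ovo and the pigment gene y. At an unadjusted p under 0.05 (edgeR) 5 were higher and 0 lower, and by DESeq2 4 and 0. The call of y was lost without control replicate 1 (0.0668) or 2 (0.121) or Ubx degraded replicate 2 (0.0881, edgeR). Of 6 genes of ZP protein processing and secretion, 0 passed by edgeR, with 2 higher and 0 lower at an unadjusted p under 0.05 and 1 and 0 by DESeq2.

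In wild-type nuclei these genes did not all follow the members. The ovo locus was at 259 ± 53.6 CPM in mesoderm at stages 14-17 and 413 ± 76.5 CPM in mesoderm at stages 10-13, a difference of -0.67 that did not pass (adjusted p = 0.0679, edgeR) but did without late neuronal replicate 1 (0.0190) or 2 (0.0173). The neuronal values of ovo were 65.0 ± 18.4 CPM at stages 14-17 and 127 ± 9.32 CPM at stages 10-13. Its locus was thus higher in mesoderm than in neuronal nuclei at stages 10-13, by 1.70 (adjusted p = 0.00170, edgeR), where 7 members were lower. Whether introns were counted in the wild-type tables is not known, and the part of the genes that overlap the ovo span in these values was not tested. In mesoderm zye was at 27.4 ± 3.50 CPM at stages 14-17 and 6.18 ± 3.06 CPM at stages 10-13. In neuronal nuclei it was at 7.16 ± 4.45 CPM at stages 14-17 and 218 ± 18.1 CPM at stages 10-13. The difference of stage changes for zye was 7.07 (adjusted p = 0.000833, edgeR), and it was 2.69 for dpy and 4.87 for nompA (adjusted p = 0.00104 and 0.000746, edgeR). The protease gene Np, whose product cleaves ZP domain proteins, was at 140 ± 9.65 CPM in mesoderm at stages 14-17 and 35.3 ± 16.0 CPM in mesoderm at stages 10-13 (SD, n = 2 each), higher by 1.99 (adjusted p = 0.00394, edgeR).

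For each member, the genes with the most alike pattern over the 8 wild-type libraries were ranked among 8424 genes by Pearson's r of log2(CPM + 1). These values describe 8 libraries that share 4 groups, and carry no p. The nearest pattern to dyl was that of CG1572 (r = 0.998), with CG9411 and myd next. For nyo they were betaTub97EF (r = 0.989), Vinc and flr, for dy CG42673 (r = 0.989), CG6106 and bs, and for m Fmo-2 (r = 0.988), CG12746 and CG17124. For mey they were CG13698 (r = 0.988), CG31098 and CG17562, for cyr MFS3 (r = 0.986), Rab9 and CG1986, and for neo Qsox2 (r = 0.981), CG11437 and Faa. For pio they were DhpD (r = 0.991), CanA1 and Jhbp16, and for qsm CG6023 (r = 0.990), CG12206 and CG10184. Among the members themselves, m was nearest to nyo (r = 0.961) and mey (r = 0.955), dyl to cyr (r = 0.947), and pio to qsm (r = 0.855). The nearest member was nyo for dy (r = 0.936) and cyr for qsm (r = 0.867). Many other genes were nearer, as nyo and mey ranked 44 and 55 for m, cyr 118 for dyl and qsm 320 for pio. The lowest value was between m and pio (r = -0.15). The neighbours m and dy had r = 0.836 (dy at rank 428 for m) and mey and nyo r = 0.895 (nyo at rank 285 for mey).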

How the data were processed

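The deposited tables are raw read counts, 1 value per gene and library. Per the submitters' processing notes, HTSeq and FastQC were used, with the genome builds BDGP6 and dm6. The sources used here do not give the aligner, annotation, counted feature or strand setting. In the degradation set 42.7 to 48.9% of all counts, with the unassigned lines included, were assigned to genes. A further 42.8 to 48.6% were alignments that were not unique. Lines of unassigned reads were left out of the fits. Symbols and coordinates came from Ensembl release 115 (symbols for 98.4% of wild-type and 95.7% of degradation set genes). Each set was fitted alone with all its groups in edgeR 4.0.16 (R 4.3.3, limma 3.58.1): filterByExpr (minimum count 10, minimum total 15), TMM, quasi-likelihood test, and Benjamini-Hochberg adjustment over all genes tested at 5%. CPM uses TMM-normalised library sizes, and SE is the log2 difference divided by the root of the F statistic. The fit was tested on simulated data. DESeq2 1.42.0, other scalings, no filter, a replicate block, fewer or all libraries in 1 fit and each library left out were alternatives. Members (listed by name, with no cut on a value), gene lists and tests were chosen with earlier results of these data known. All measured members are named; from a list at most 2 genes higher and 2 lower by adjusted p, besides dpy, zye, nompA, ovo and Np. The 3 genes of highest r to each member (mean of at least 5 CPM) are named. Python 3.11.15, pandas 2.3.3 and matplotlib 3.10.9 made tables and plots. No sequences are given. List symbols that matched no gene (tal, zip and tsp) were not analysed here.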

Additional observations from a re-analysis of the deposited data

Results flagged for a closer look

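For 8 of the 9 measured ZP domain genes, the change between stages differed between the tissues by the test of that difference (edgeR), which is why they are given here. Over all genes, 20.6% were called higher in this difference and 14.7% lower. The stage change in mesoderm exceeded that in the libraries labelled neuronal by 4.39 on the log2 scale for dyl, 2.93 for cyr, 2.41 for pio and 1.79 for qsm. The excess was 1.48 for dy, 1.44 for mey, 1.33 for m and 0.91 for nyo. The calls of mey, m and nyo held in only 4, 4 and 1 of the 8 fits that left out 1 library. At stages 14-17 the neuronal markers did not separate mesoderm from the libraries labelled neuronal, on which these differences rest, with 2 of 9 higher in mesoderm and 0 lower. The part of this in the differences was not tested.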

How the results depend on the processing

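Of 774 alternative values of the members' changes, 643 kept their direction and their side of the threshold, 106 lost a call, 16 gained one, 9 that were never called moved, and 0 called values changed sign. With 1 library left out, the number of members called, and then of all genes higher and lower, took these ranges. For mesoderm against neuronal nuclei at stages 10-13, 5 to 7 members were lower, with 1562 to 3268 genes higher and 2135 to 3690 lower. For the same tissues at stages 14-17, 1 to 4 members were higher, with 960 to 2519 genes higher and 368 to 3128 lower. For the stage change in mesoderm, 6 to 8 members were higher, with 1712 to 3223 genes higher and 1150 to 3071 lower. For the stage change in neuronal nuclei, 0 to 2 members were higher and 1 to 3 lower, with 57 to 2098 genes higher and 329 to 2133 lower. For the difference of stage changes, 5 to 8 members were higher, with 1405 to 2783 genes higher and 595 to 2478 lower. For Ubx degraded against control, 0 to 8 members were higher, with 31 to 753 genes higher and 3 to 892 lower. At stages 14-17, 1 member was higher between the tissues with library totals alone and 1 without the filter on low counts, and genes lower numbered 3554 with library totals and 1319 with only the groups compared. For the neuronal stage change, only the groups compared gave 0 members higher and 1 lower, with 159 genes higher and 606 lower, while DESeq2 gave 1354 genes higher and all libraries in 1 fit 1667. For Ubx degraded against control, all libraries in 1 fit gave 5 members higher, with 133 genes higher and 47 lower, and DESeq2 gave 718 and 494. The causes were not tested, and a fit that leaves out 1 library cannot tell fewer libraries from the loss of that library.

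The replicate numbers were not taken to pair the samples. In the degradation set, same-numbered libraries had correlations of deviations from 0.0887 to 0.272, and control replicate 2 was closer to Ubx degraded replicate 1 (0.102) than to replicate 2. In the wild-type set they ran from -0.141 to 0.163. With the replicate block, 9 members were higher in Ubx degraded libraries, with 743 genes higher and 495 lower, pio passed there (adjusted p = 0.0263, edgeR), neo passed in the mesoderm stage change (0.0269) and cyr was lost in the neuronal one (0.0573). The wild-type set has 2 libraries per group, which limits what its tests can call.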

Other observations

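Lists of further cell types had 0 or 1 call each by edgeR in the degradation set. Of 4 fat body markers 2 could be tested and 1 was higher, the storage protein gene Lsp2, at 2.67 ± 0.48 CPM in Ubx degraded libraries and 0.556 ± 0.191 CPM in controls (SD, n = 3; 2.28, adjusted p = 0.0100, edgeR), a larger difference than that of any epidermis and trachea marker. That call was lost without control replicate 2 (0.0595) or Ubx degraded replicate 2 (0.0626). The abundant fat body gene apolpp was at 3249 ± 430 CPM in Ubx degraded libraries and 2655 ± 283 CPM in controls, and its difference of 0.29 did not pass (adjusted p = 0.294, edgeR). Of 6 hemocyte markers 0 were higher in Ubx degraded libraries and 1 was lower, Hml, at 93.3 ± 37.3 CPM in Ubx degraded libraries and 252 ± 50.0 CPM in controls (SD, n = 3; -1.43, adjusted p = 0.0313, edgeR). That call was lost without control replicate 1 (0.0788) or 2 (0.130) or Ubx degraded replicate 2 (0.120) or 3 (0.0614). Of 4 tendon markers 1 was higher, slow, by 0.65 (adjusted p = 0.0418, edgeR), and its call held only without control replicate 3 (0.0296), with adjusted p up to 0.187 in the other 5 such fits. The 4 tendon markers ranged from -1.21 to 0.78. Of them 2 were higher and 1 lower at an unadjusted p under 0.05 (edgeR), and the same by DESeq2. Of 4 midgut, 4 sensory organ support cell and 5 glia markers, 0 passed by edgeR or by DESeq2, with 1 midgut marker and 0 of the others at an unadjusted p under 0.05 (edgeR).

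With all 14 libraries on 1 scale, the wild-type and degradation sets of late mesoderm held the members at different levels, which were counted in separate tables and not tested. The mean of nyo was 187 CPM in wild-type mesoderm at stages 14-17 and 24.1 CPM in the degradation controls, and that of dy 60.0 and 6.59 CPM. The mean of pio was 70.1 CPM in wild-type mesoderm and 219 CPM in the controls, and that of dpy 658 and 1174 CPM.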
